A study of Sinopodophyllum hexandrum with 2 samples.

Results

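The miRNAs described here are those named miR156, miR157 or miR535 in lists of conserved miRNAs from mature leaf of the medicinal herb Podophyllum hexandrum, for which GEO uses the name Sinopodophyllum hexandrum. They were chosen by the number in the name alone, and there were 38 such names among the 181 in either list. The study held 2 small RNA libraries of mature leaf, 1 from a control sample and 1 from a treated sample. The sources used here do not name the treatment, the age or strain of the plants or their number. Each list gave a name and a mature sequence for every entry and no abundance, so an entry could be listed or not listed, and no level or fold could be derived. With 1 library per group there was no replicate check and no test of the treatment.

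In plants, miR156 is best known for its 5p strand, which targets mRNAs of SPL transcription factors and keeps shoots and leaves in a juvenile state. miR157 is a close relative of miR156 with the same kind of targets, and miR535 has been grouped with both because its mature strand resembles the 5p strand of miR156. Each mature miRNA is cut from a hairpin together with a partner from the opposite arm, and the partner of the 5p strand carries the suffix 3p. The 3p strand of miR156 is usually regarded as the passenger strand, which is often degraded.

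All 21 names of miR156 and miR157 carried the suffix 3p. The control list held 18 of them, and the treated list 15. No name of either family with the suffix 5p stood in either list, so the strand known for SPL targeting was not listed. All 17 names of miR535 stood in both lists. Of these, 1 carried the suffix 5p (osa-miR535-5p, from rice) and 16 carried no suffix. The names bear prefixes of 19 other plant species, and it is unknown how closely reads of Podophyllum match the sequences listed under them.

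The sequences under the most names in each family show what the families look like. They are printed 5′ to 3′ as in the deposited lists, with the seed (bases 2 to 8) in capitals, and all 3 were in both lists.
aly-miR156f-3p: gCUCACUCucuaucugucacc
aly-miR157c-3p: gCUCUCUAuacuucugucacc
atr-miR535: uGACAACGagagagagcacgc
The first, of Arabidopsis lyrata, was also listed for Brassica rapa as bra-miR156b-3p and bra-miR156d-3p, 3 names in all. The next was listed for Arabidopsis lyrata and Arabidopsis thaliana, 2 names. The miR535 sequence was listed under 14 names with 9 species prefixes, among them those of the moss Physcomitrella patens, rice, the conifer Picea abies, grape and Amborella. No sequence of another family was listed under more than 12 names in the control list or 7 in the treated list.

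The miR535 entries were the same in the control and treated lists. All 17 names and all 4 distinct sequences were in both lists. By number of names, miR535 ranked 3rd of 39 control families and 2nd of 30 treated families. It made up 11.0% of the names in the control list and 15.9% of those in the treated list, with the same 17 names in each, since the treated list was shorter (107 names against 155). The other 3 sequences differed from the one above at the 3′ end only, and they are shown because they are the whole variation of the family.
aqc-miR535: uGACAACGagagagagcacgcg
mes-miR535a: uGACAACGagagagagcacgu
mes-miR535b: uGACAACGagagagagcacgg
The sequence of aqc-miR535, from columbine (Aquilegia), a plant of the same order as Podophyllum, was of 22 nt and had 1 added G at the 3′ end. Those of mes-miR535a and mes-miR535b, from cassava, were of 21 nt and carried the substitutions C21U and C21G. Here and below, a substitution gives the base of the sequence compared with, its position counted from 1 at the 5′ end, and the base of the entry named. All 4 shared the seed GACAACG, which no sequence of another family had.

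Entries of miR156 and miR157 were shared between the lists in part. For miR156, the control list held 15 names and the treated list 11, and 9 were in both, which is 60.0% of the control names and 81.8% of the treated names. Over all listed names, which include the families described here, these shares were 52.3% and 75.7%. Over the names of other families they were 43.3% and 69.3%, and the difference from miR156 was not tested. For miR157 the lists held 3 and 4 names, with all 3 control names in the treated list. By distinct sequence, the control list held 12 of miR156 and the treated list 9, with 7 in both, and miR157 had 2 and 3 with 2 in both.

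**Figure D1:**
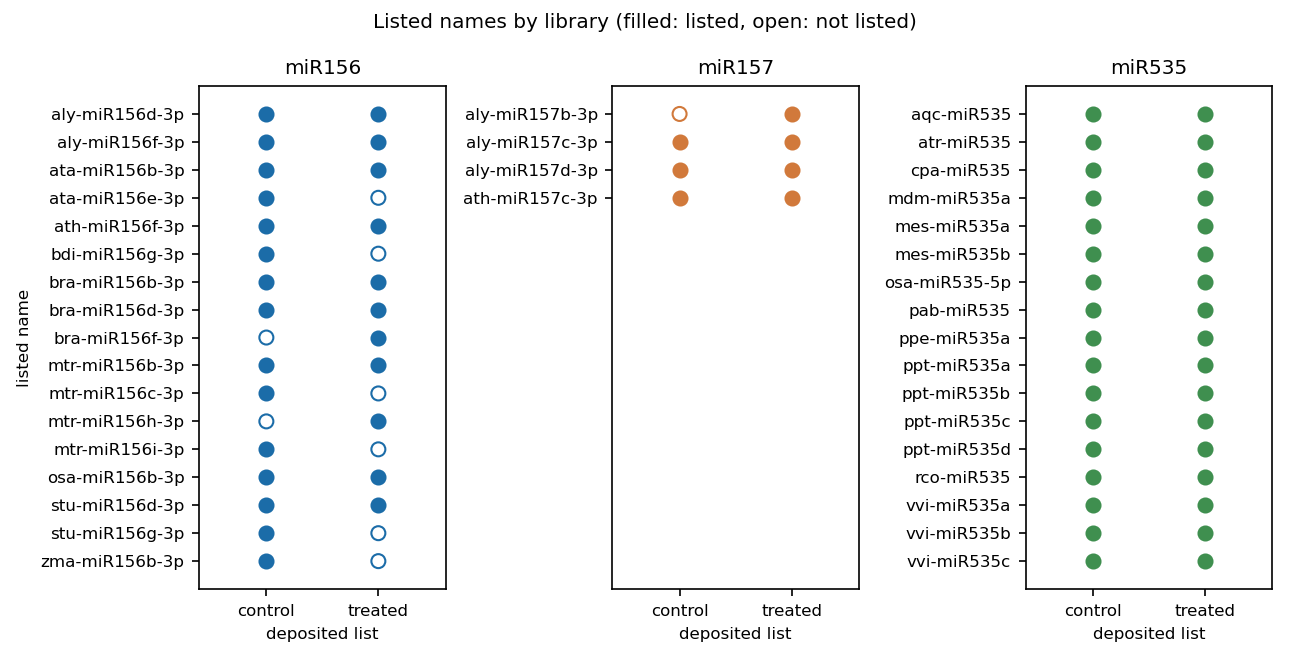
Each row is a listed name and each column a deposited list (control or treated), with filled circles for names that are listed and open circles for names that are not. All 17 miR535 names are filled in both columns, 6 miR156 names are filled in the control column only, and 2 miR156 names and 1 miR157 name in the treated column only.

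Over the 3 families, 29 of 38 names were in both lists, or 76.3% (exact binomial 95% interval 59.8% to 88.6%). Among all 181 listed names 44.8% were in both lists, and among the 143 names of other families 36.4%. By distinct sequence, 13 of 21 were in both, or 61.9% (38.4% to 81.9%), against 41.0% of all 122 listed sequences and 36.6% of the 101 of other families. miR535 carried much of the share by name: without it, 12 of 21 names (57.1%, 34.0% to 78.2%) and 9 of 17 sequences (52.9%, 27.8% to 77.0%) were in both. In the control list only were 6 of the 38 names, against 40.9% of all listed names and 47.6% of those of other families, and 5 of the 21 sequences, against 42.6% and 46.5%. In the treated list only were 3 of the 38 names, against 14.4% and 16.1%, and 3 of the 21 sequences, against 16.4% and 16.8%. The intervals of the other families were 28.5% to 44.8% by name and 27.3% to 46.8% by sequence. Those for miR156 and miR157 overlapped them. By name, the intervals of the 3 families together and of miR535 alone (80.5% to 100%) did not overlap that of the other families. By sequence they did (miR535 39.8% to 100%). Entries of a family may be matched by the same reads and are not independent samples, so these intervals serve as descriptions only, and the difference from other families was not tested.

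**Figure D2:**
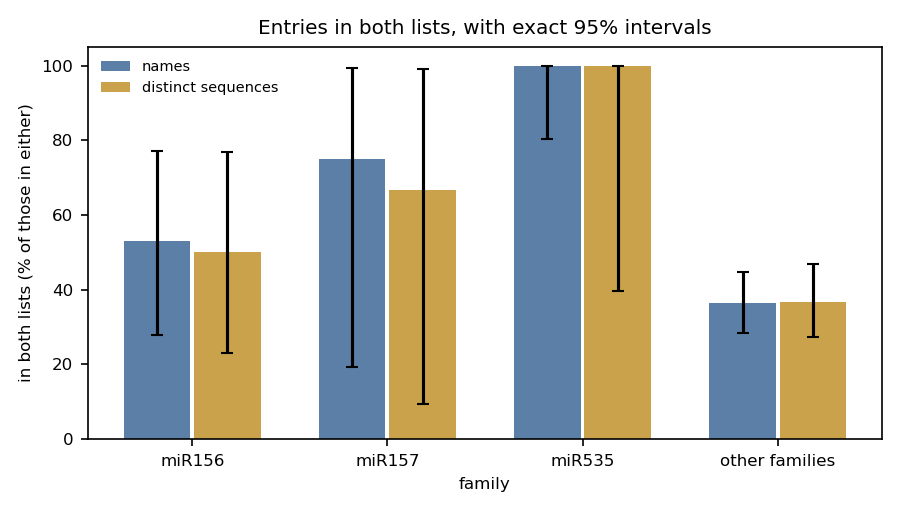
Bars give the share of entries found in both lists, as a percentage of those in either, for each family and for all other families together, by name and by distinct sequence, with exact 95% binomial intervals. miR535 stands at 100%, miR156 at 52.9% of names and 50.0% of sequences, and the other families at 36.4% and 36.6%, with wide intervals for the small families.

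The sequences in the control list only were 5, under 6 names, all of miR156. They are shown because they are the control side of the difference between the lists.
ata-miR156e-3p: gCUCACCCucucucugucagc
zma-miR156b-3p: gCUCACCCucuaucugucagu
stu-miR156g-3p: gCUUACUCucuaucugucacc
mtr-miR156c-3p: uGCUUACUcucuaucugucacc
mtr-miR156i-3p: uGCUCACUucucuuucugucauc
The first was listed for the grasses Aegilops tauschii and Brachypodium distachyon (as bdi-miR156g-3p), and the next for maize. Compared with aly-miR156f-3p, both carried U7C and C20G, and they shared the seed CUCACCC, which no sequence in the treated list had. The entry of potato, stu-miR156g-3p, differed from aly-miR156f-3p by C4U alone. The entry mtr-miR156c-3p, of Medicago truncatula, was the potato sequence with 1 added U at the 5′ end, and it differed by C5U from mtr-miR156b-3p, which was in both lists. The last, mtr-miR156i-3p, was of 23 nt. All 5 lay nearer by edit distance to aly-miR156f-3p than to the miR157 sequence printed above.

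The sequences in the treated list only were 3, each under 1 name, and they are shown as the treated side of the difference.
mtr-miR156h-3p: gCUCUUUAuucuucugucauc
aly-miR157b-3p: gCUCUCUAagcuucugucauca
bra-miR156f-3p: uGCUCACUgcucuuucugucaga
The entry mtr-miR156h-3p differed from aly-miR157d-3p, a miR157 sequence in both lists, by C6U and G10U, and it was 6 edits from aly-miR156f-3p. The entry aly-miR157b-3p differed by U9A from stu-miR156d-3p, which was in both lists. The entry bra-miR156f-3p was of 23 nt, like mtr-miR156i-3p of the control list, from which it differed by U9G, U22G and C23A. Thus each list held a 23-nt entry that the other did not. Of the 3 sequences in the treated list only, 2 lay nearer to the miR157 sequence and 1 to the miR156 sequence. Of the 9 in both lists, 6 lay nearer to the miR156 sequence and 3 to the miR157 sequence, each count including that sequence itself.

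Each sequence found in 1 list only had a relative within 3 edits in the other list. Relatives were sought among the 3 families only, and the median distance within miR156 was itself 4 edits. No such distances between the lists are given for other families. The nearest sequence there was 1 edit away for mtr-miR156c-3p, stu-miR156g-3p and aly-miR157b-3p. It was 2 edits away for ata-miR156e-3p, zma-miR156b-3p and mtr-miR156h-3p, and 3 edits away for mtr-miR156i-3p and bra-miR156f-3p. Chaining every sequence to those within 3 edits of it gave 3 groups, whose ends can lie further apart. Because of the distances just given, each group had to hold members in both lists. The group around aly-miR156f-3p held 12 sequences, 11 of them control and 7 treated, with 6 in both lists. The group around aly-miR157c-3p held 5 sequences, 3 control and 5 treated, so that its 3 control sequences were all in the treated list. The group of miR535 held its 4 sequences. Among names, the miR156 group had 14 control and 9 treated entries and the miR157 group 4 and 6. Over all families the treated list was the shorter, with 107 names against 155 and 70 distinct sequences against 102. Of all listed sequences, 50 were in both lists. Whether the numbers of either group differ between treated and control leaf could not be tested with 1 library each. With respect to species, the prefix of 8 of the 9 names in 1 list only also occurred in the other list, on 2 to 8 names. The exception was bdi-miR156g-3p, whose prefix had 0 names in the treated list.

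The numbers in the names and the sequences did not divide the entries in the same way. The potato entry stu-miR156d-3p, named miR156 and present in both lists, was the miR157 sequence of Arabidopsis lyrata with 1 added A at the 3′ end, as the following pair shows.
aly-miR157d-3p: gCUCUCUAugcuucugucauc
stu-miR156d-3p: gCUCUCUAugcuucugucauca
It was 3 edits from the leading miR157 sequence and 6 from the leading miR156 sequence. With mtr-miR156h-3p, this made 2 of 14 sequences named miR156 that lay nearer to the leading miR157 sequence, while all 3 sequences named miR157 did so. The leading sequence of each family is among those counted and is nearest to itself by definition. Distances between distinct sequences had a median of 4 edits within miR156 (range 1 to 8, 91 pairs), 2 within miR157 (2 to 4, 3 pairs) and 6 between miR156 and miR157 (1 to 9, 42 pairs). Within miR535 the median was 1 (1 to 2, 6 pairs). The nearest sequence of any other family was 7 to 10 edits away.

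**Figure D3:**
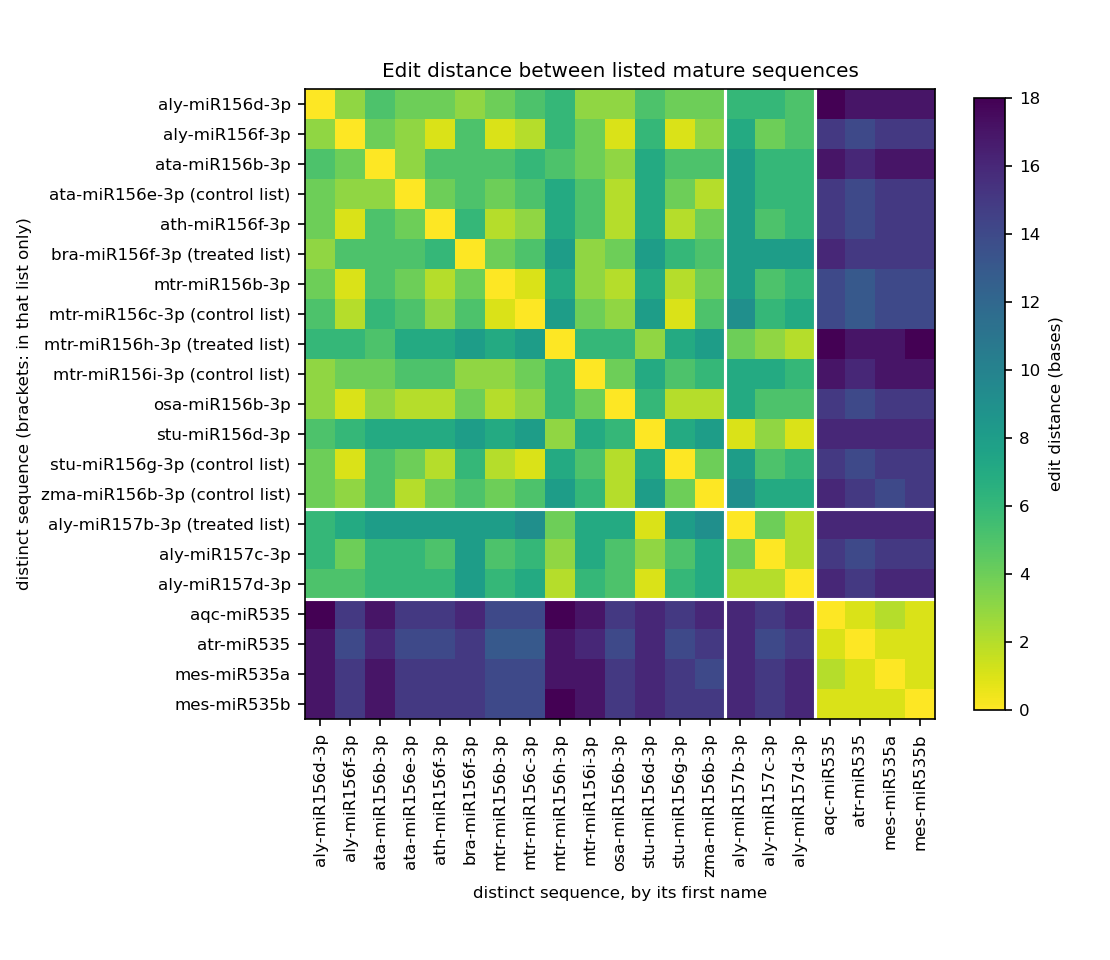
Colour gives the edit distance in bases between each pair of the 21 distinct sequences, named by their first name and ordered by family with white lines between families, and brackets mark those in 1 list only. The 4 miR535 sequences form a block of at most 2 edits that lies 13 to 18 edits from all others, while stu-miR156d-3p and mtr-miR156h-3p are closer to the miR157 block than to most miR156 sequences.

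The seeds grouped the entries further. The 17 sequences of miR156 and miR157 had 8 seeds, and the 4 of miR535 had 1. The seed CUCACUC was held by 4 sequences under 6 names, all in both lists. The seed CUCUCUA was held by 4 sequences under 5 names, of which 3 sequences were in both lists and 1, aly-miR157b-3p, in the treated list only. The seed GCUCACU, found in entries that begin with U before GCU, was held by 3 sequences. Of these, 1 was in both lists, 1 in the control list only and 1 in the treated list only. The other 5 seeds belonged to 1 or 2 sequences each, and of these only that of ata-miR156b-3p was in both lists. No sequence of another family had any of the 9 seeds.

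Positions were compared among the miR156 and miR157 entries of 21 nt, which have equal length and were set side by side without gaps. Equal length does not make every position correspond. Placed this way, mtr-miR156h-3p differed from aly-miR156f-3p at 7 positions, while its edit distance, which allows gaps, was 6. The variation at a position thus depends on the placement without gaps. Among these 10 distinct sequences, 10 of the 21 positions had the same base in all. These were positions 1 to 3, 9, 13, 14 and 16 to 19. Position 20 was the most variable, where the commonest base was in 4 of the 10, followed by position 12, with 5 of the 10. Position 10 was the only position at which all 4 bases occurred. Position 15 varied through a single entry, ath-miR156f-3p of Arabidopsis thaliana, which carried U15C and was in both lists.

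**Figure D4:**
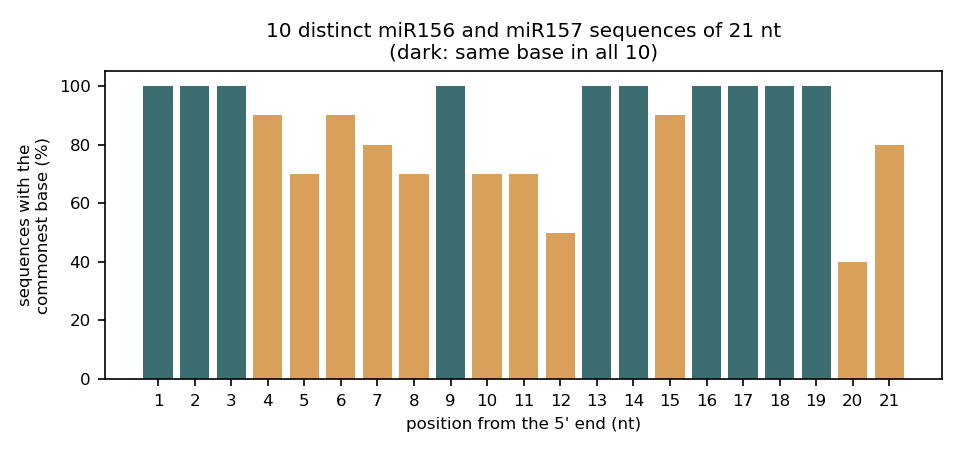
Bars give, for each position from the 5′ end, the percentage of the 10 distinct 21-nt miR156 and miR157 sequences that carry the commonest base, with dark bars where all 10 are the same. The start and positions 16 to 19 are at 100%, and position 20 is lowest at 40.0%.

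The first base differed between miR535 and most of the listed 3p strands, and their lengths overlapped. The miR156 and miR157 sequences were of 21 nt (10), 22 nt (5) and 23 nt (2), and those of miR535 of 21 nt (3) and 22 nt (1). None of the members had 20 or 24 nt, lengths held by 5 and 8 of the 101 sequences of other families. Over all members, 61.9% (38.4% to 81.9%) were of 21 nt, against 50.5% (40.4% to 60.6%) of the sequences of other families. By list, 12 of 18 control sequences and 10 of 16 treated sequences were of 21 nt. A 5′ U, the base best known for loading into AGO1, was on all 4 miR535 sequences but on 4 of the 17 miR156 and miR157 sequences (23.5%, 6.81% to 49.9%). The other 13 began with G, as did 8 of the 101 sequences of other families, 65.3% (55.2% to 74.5%) of which began with U. All 4 miR156 sequences with a 5′ U had this U before the bases GCU. For mtr-miR156b-3p and mtr-miR156c-3p, the same sequence without the U was also listed, and for the 23-nt entries it was not. The median GC content was 47.6% (lowest to highest 38.1% to 61.9%) for miR156 and miR157 and 57.1% (lowest to highest 52.4% to 59.1%) for miR535. For the other families it was 52.4% (lowest to highest 22.7% to 85.7%).

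Since the arms of a hairpin pair with each other, the 3p entries were also compared with miR535 as reverse complements. As listed, the miR156 and miR157 sequences were a median of 15 edits (13 to 18, 68 pairs) from those of miR535. Sequences of other families, as listed, were nearer, with a median of 13 (7 to 17, 404 pairs). The reverse complements of miR156 and miR157 were a median of 9 edits (7 to 10) from miR535, while those of the other families were a median of 13 (8 to 18, 404 pairs). The pair below shows the reverse complement of aly-miR156f-3p above the miR535 sequence of 14 names, with the bases UGACA in capitals.
aly-miR156f-3p, reverse complement: ggUGACAgauagagagugagc
atr-miR535: UGACAacgagagagagcacgc
Placed without gaps at the offset with the most matches, these matched at 13 of 19 aligned positions. No miR156 or miR157 sequence had more matches to atr-miR535, and several others, such as osa-miR156b-3p, also had 13. By edits, the reverse complement of stu-miR156g-3p was nearer to atr-miR535 (7 against 8). The fewest matches were 10 of 17 for aly-miR157b-3p and mtr-miR156h-3p and 10 of 21 for bra-miR156f-3p. Without gaps, a median of 9 bases (8 to 12) of the shorter sequence were unmatched over the 68 pairs. For reverse complements of the other families this was 13 (10 to 17). The letters UGUCA, whose reverse complement is UGACA, were found in 16 of the 17 miR156 and miR157 sequences and in 1 of the 101 of other families (0.990%). The exception was ath-miR156f-3p, through the substitution named above. All 4 miR535 sequences began with UGACA, which was found in 3 of the 101 sequences of other families (2.97%) and stood at the start of none of them. The letters CUCUC were found in 13 of the 17 (2.97% of the other families) and their reverse complement GAGAG in all 4 of miR535 (8.91%), and as spelt these cannot overlap with UGUCA or UGACA. These letters were chosen after the sequences were seen, and the matches are a description of listed entries.

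Other miRNAs of the same pathway were looked up by name. miR172, which in other plants rises as miR156 falls with the age of the shoot, and miR529, another relative of miR156, had 0 names in each list. They were chosen after the lists were seen, and a family outside a list was only not listed for that library. The table of predicted miRNA loci, with 3785 control reads and 13445 treated reads over 117 entries, had 0 entries under the names miR156, miR157 or miR535. Its loci carry no sequence, so whether any of them belongs to these families is unknown.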

How the data were processed

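Per the labels' protocols, total RNA went into NEBNext small RNA libraries and single-end sequencing. The adapter trimmer cutadapt (no version) is named in the submitters' processing notes. The sources used here name no mapper, reference miRNA collection, mismatch limit or filter. The deposited lists of conserved miRNAs hold names and sequences. Each was assigned to the library whose code stands in its sample title. The depth behind the lists is unknown. The deposited table of predicted loci holds raw read counts, used here for its totals and names only.

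Members were taken by the number in the name. Names and distinct sequences were compared between lists, with exact Clopper-Pearson 95% intervals. Distances are global edit distances. Functions were checked on simulated data. Sequences were named by a rule: those of the most names per family, those in 1 list only, with the end variants and the other miR535 sequences added after they were seen. The members, rules and letters searched were chosen with earlier results of these data known. Alternatives were other units, matching rules and families. Python 3.11.15 was used with edlib for distances, scipy 1.17.1 for intervals and matplotlib 3.10.9 for plots.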

Additional observations from a re-analysis of the deposited data

How the results depend on the processing

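The share of sequences in both lists was 61.9%. It rose to 100% with sequences chained at up to 3 edits (3 of 3 groups, which the distances fix in advance) and without miR156 and miR157 (4 of 4 sequences). The share of names in both lists was 76.3%, 57.1% without miR535 and 100% without miR156 and miR157. Counted without gaps, the median difference within miR156 was 7 bases against 4 edits. Edit distance allows gaps and the other count allows none, and how far this accounts for the difference was not tested. The other 14 of 19 alternatives stayed within the interval or, for distances, the interquartile range of the reported value. Among those for the share of sequences, it was 50.0% to 60.0% by sequences or sequence groups and 76.3% by names. The division by nearer sequence was chosen after seeing the data. No library could be left out, and the lists hold no depth. No paired analysis was possible because each group is a single library.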
